A study of Homo sapiens with 6 samples.

Results

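The transcripts described here belong to 33 human genes that act in the G2 phase and in mitosis, and they were followed in ES-2 cells that received a mimic of the microRNA mir-22 or a control mimic. All probes of the array whose annotated gene symbol equals one of the 33 listed symbols were taken, which gave 50 probes out of 48803, and 16 of the genes had several probes. All 33 genes had a probe above background, and all 50 probes passed the detection filter. They are 33 of 18852 named genes on the array, of which 11133 had a probe that passed, and 18732 probes passed in all. ES-2 is an established human cell line that the labels describe as clear cell ovarian cancer. Cells of the mimic group were transfected with 65 nM of hsa-mir-22 mimic, a synthetic double-stranded RNA that acts in place of the natural microRNA. Cells of the control group received a negative control mimic based on C. elegans microRNAs, at an amount not given in the sources used here. All cells were grown in the same serum-containing medium and harvested 48 hours after transfection, and each group had 3 arrays. The labels call these arrays biological replicates without naming separate cultures or days, so p-values here measure only how far these arrays spread, which may be technical.

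Entry into mitosis is driven by CDK1 bound to cyclin A2 or B, which WEE1 holds inactive by phosphorylation and which the CDC25 phosphatases switch on. Aurora and Polo-like kinases, kinesin motors and microtubule proteins then build the spindle, and the spindle checkpoint restrains CDC20 and the anaphase-promoting complex until every kinetochore is attached. Most of these genes are transcribed late in the cell cycle under the control of the DREAM and MYB-MuvB complexes and of FOXM1, so their messenger RNAs usually rise and decline together in dividing cells.

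The mature strands of the introduced microRNA are shown because their seeds set which transcripts it can pair with. They are credited to RefSeq, build GRCh38.p14, minus strand, and the capitals mark the seed, bases 2 to 8. The labels do not state which strand the mimic carried.
hsa-miR-22-3p (chr17:1713914-1713935): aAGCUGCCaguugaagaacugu
hsa-miR-22-5p (chr17:1713952-1713973): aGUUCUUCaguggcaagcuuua

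Between 35.8% and 39.4% of the probes were above background on an array. Control mimic replicate 3 stood apart from the other 5 arrays on principal component 1, which held 60.1% of the variance, at 50.1 against -21.3 to -9.11 on the mimic arrays and -1.36 and 0.11 on control mimic replicates 1 and 2. For many of the genes, values without that array are given beside those with it. Of the markers of the line, the keratin genes KRT7, KRT8 and KRT18 and the vimentin gene VIM were above background on all 6 arrays. EPCAM, CDH1, KRT19, PAX8 and NAPSA, markers of epithelial or clear cell carcinoma tissue, were above background on no array. Of the markers of other cell types, PTPRC, CD3E and KDR were above background on no array, and CD14, PECAM1 and CDH5 were above it on all 6.

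With the mir-22 mimic, transcripts of the mitotic activators CDC25B and CDC25C fell, and the other 31 genes did not pass the test. CDC25B was 1.71-fold lower and CDC25C 1.41-fold lower than with the control mimic. The cyclins, CDK1, the Aurora kinases, PLK1 and the spindle checkpoint genes were not called in either direction. Expression was compared as normalised log2 intensity with limma's moderated test, and a gene was called if its p-value, adjusted by the Benjamini-Hochberg method over all 18732 kept probes, was under 0.05. A gene is represented by its brightest probe. Called were 2 of the 33 genes, or 6.06%, both lower, where 7.61% of the 11133 measured genes were called, 4.14% lower and 3.47% higher. The count among the 33 genes is thus close to the background. The median log2 fold change over the 33 genes was -0.08, against -0.02 over all measured genes, and 19 of the 33, or 57.6%, lay below 0, against 53.0% of all genes. In RNA from a whole culture, fewer cells in G2 or mitosis and less RNA per cell cannot be told apart. With median scaling between arrays in place of quantile normalisation, the median of all genes shifted by 0.11, the calls over all probes split as 459 higher and 169 lower instead of 569 higher and 641 lower, and CDC25B was the only called member. The median of the members then lay 0.04 below that of all genes, against 0.06 below with quantile normalisation.

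**Figure D1:**
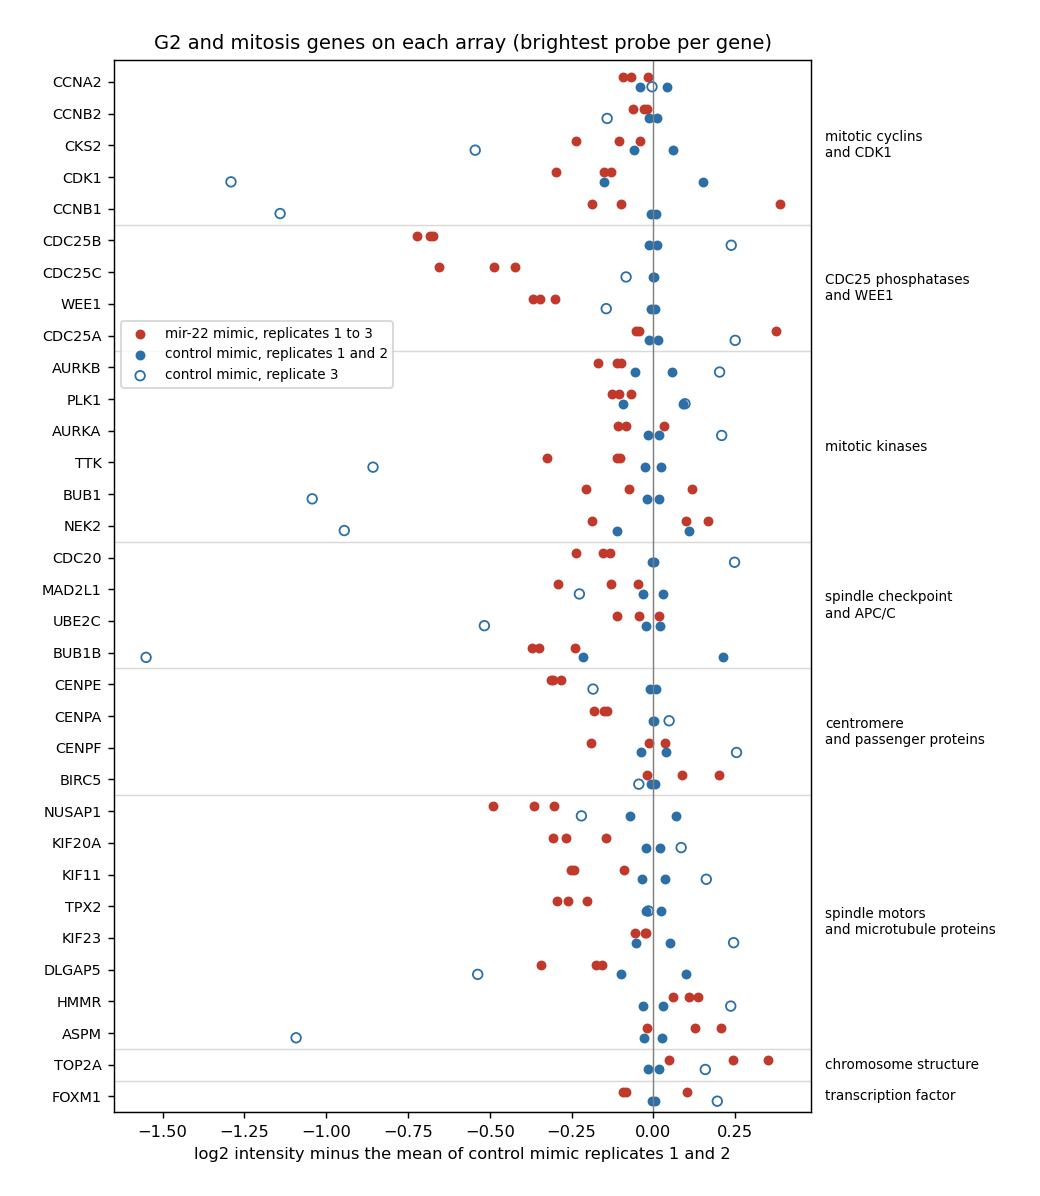
Normalised log2 intensity of the brightest probe of each of the 33 genes on each array, minus the mean of control mimic replicates 1 and 2, grouped by role (red, mir-22 mimic; filled blue, control mimic replicates 1 and 2; open blue, control mimic replicate 3). The mimic arrays lie between -0.72 and -0.67 for CDC25B, while control mimic replicate 3 lies at -1.55 for BUB1B and -1.29 for CDK1.

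The group of CDK1 activators and their opposing kinase held both calls. CDC25B, the phosphatase that starts CDK1 activation at the centrosome, had normalised log2 intensities of 9.75, 9.79 and 9.80 on the mir-22 mimic arrays, against 10.46, 10.49 and 10.71 on the control mimic arrays. The mimic arrays lay close together and all lay below the lowest control array. The log2 fold change was -0.77 ± 0.10 (moderated SE, 3 arrays per group), with an adjusted p of 0.00763 in limma. Its call was lost without mir-22 mimic replicate 1 (-0.76, adjusted p = 0.0598) and without mir-22 mimic replicate 2 (-0.78, adjusted p = 0.0585), and over all alternatives the adjusted p ran from 0.000119 to 0.0598.

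CDC25C, the phosphatase that completes CDK1 activation at mitotic onset, was measured by 3 probes. The brightest read 8.05, 8.22 and 8.28 with the mir-22 mimic and 8.71, 8.70 and 8.62 with the control mimic, a log2 fold change of -0.49 ± 0.10 (adjusted p = 0.0297, limma). The dimmest probe read 7.62, 7.72 and 7.72 with the mimic, against 8.14, 8.07 and 8.18 with the control, or -0.44 (adjusted p = 0.0321). The remaining probe read 7.76, 7.85 and 7.63 with the mimic and 8.18, 8.37 and 8.01 with the control, or -0.44. It did not pass (adjusted p = 0.0736), but did so with a replicate block (0.0392). On each of the 3 probes all mimic arrays lay below all control arrays. The call of CDC25C on its brightest probe was lost when any array other than control mimic replicate 3 was left out, with log2 fold changes from -0.54 to -0.43, and with median scaling (-0.36, adjusted p = 0.178). Its adjusted p ran from 0.00108 to 0.178 over all alternatives.

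WEE1, the kinase that opposes these phosphatases, read 8.03, 7.98 and 7.96 with the mir-22 mimic, against 8.32, 8.33 and 8.18 with the control mimic. The groups did not overlap, and the log2 fold change of -0.29 ± 0.09 did not pass (adjusted p = 0.113, limma). Without control mimic replicate 3 it was -0.34 and passed (adjusted p = 0.0276). CDC25A, which acts mainly at the start of S phase, read 8.48, 8.47 and 8.90 with the mimic and 8.53, 8.51 and 8.77 with the control. Its groups overlapped, and the 95% interval of its log2 fold change ran from -0.32 to 0.34. Within the CDC25 family, therefore, CDC25B and CDC25C were called and CDC25A was not, and the differences between family members were not tested.

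**Figure D2:**
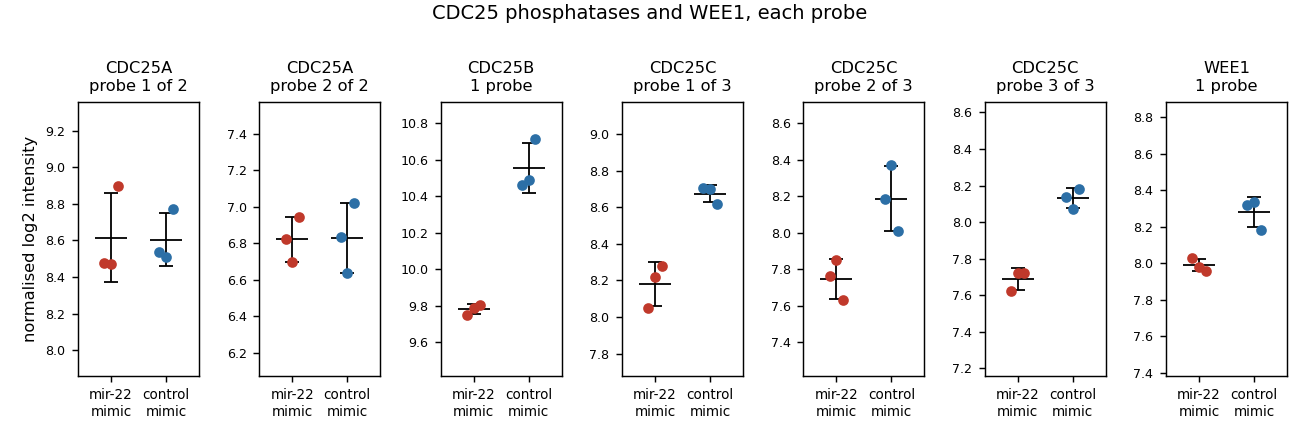
Normalised log2 intensity of every probe of CDC25A, CDC25B, CDC25C and WEE1, with the mir-22 mimic (red) left and the control mimic (blue) right in each panel (points, replicates 1 to 3 from left to right; bars, mean and SD; each panel spans the same range of log2 units). Mimic and control arrays are separated on the CDC25B probe, all 3 CDC25C probes and the WEE1 probe, and overlap on both CDC25A probes.

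Promoters of many of these genes held 2 short sequence elements. The members were not picked by these letters, but they belong to a class mostly controlled by DREAM and MYB-MuvB. A high share of windows with the letters therefore follows from the choice of genes, and it says nothing about the mir-22 mimic. Promoter windows from 250 bases before to 50 after the transcript start came from RefSeq, build GRCh38.p14, and matched 26 of the 33 genes. AURKA, BIRC5, FOXM1, TPX2, TTK, UBE2C and WEE1 were not matched. Only 1 window per gene was searched, so other transcript starts of a gene were not covered. The cell cycle homology region (CHR), the element bound by DREAM and MYB-MuvB, was searched as TTTGAA, its variant as TTCGAA and the NF-Y box as CCAAT, each on both strands. TTTGAA stood in 16 of the 26 windows, or 61.5%, against 10.4% of the windows of 9129 measured genes and 15.4% of all 27305 windows. CCAAT stood in 22, or 84.6%, against 37.5% and 35.7%, and TTTGAA and CCAAT stood together in 15, or 57.7%, against 4.39% and 6.08%. TTCGAA stood in 1, BUB1, or 3.85%, against 1.79% and 1.45%. In no member window did TTTGAA and CCAAT share bases.

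In all, 3 windows held none of these letters, those of CDC25B, CDC25C and CENPE, which are also 3 of the 5 genes called without control mimic replicate 3. The other called gene with a window, NUSAP1, held TTTGAA and CCAAT. The windows of the called genes CDC25B and CDC25C are printed beside those of CCNB2 and HMMR, whose brightest probes had log2 fold changes of 0.01 and 0.02, to show windows without and with these letters. The dimmer HMMR probe was at 0.62 with all 6 arrays and at -0.01 without control mimic replicate 3. The difference between the windows was noticed after the values were seen and was not tested. Capitals mark TTTGAA and CCAAT on either strand, and the sequences run from 5′ to 3′ along the gene. They lie at chr20:3786701-3787000 (CDC25B, plus strand), chr5:138338306-138338605 (CDC25C, minus strand), chr15:59104896-59105195 (CCNB2, plus strand) and chr5:163460382-163460681 (HMMR, plus strand). A match is a description of the letters in a window, and no match says only that they are not in it. It does not say that a gene lacks these elements, since windows at other transcript starts, of CDC25C for example, were not searched.
CDC25B: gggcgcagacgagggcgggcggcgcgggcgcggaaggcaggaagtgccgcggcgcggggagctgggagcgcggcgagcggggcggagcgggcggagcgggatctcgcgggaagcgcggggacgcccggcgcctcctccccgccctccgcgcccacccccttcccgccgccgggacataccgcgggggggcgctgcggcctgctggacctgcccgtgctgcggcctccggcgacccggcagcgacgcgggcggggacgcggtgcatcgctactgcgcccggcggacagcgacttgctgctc
CDC25C: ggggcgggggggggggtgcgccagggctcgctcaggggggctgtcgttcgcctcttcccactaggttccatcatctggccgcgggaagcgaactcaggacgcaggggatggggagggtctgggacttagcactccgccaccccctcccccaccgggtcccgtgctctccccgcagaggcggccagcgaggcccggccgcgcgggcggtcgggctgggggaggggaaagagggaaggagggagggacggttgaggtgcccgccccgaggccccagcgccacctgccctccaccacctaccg
CCNB2: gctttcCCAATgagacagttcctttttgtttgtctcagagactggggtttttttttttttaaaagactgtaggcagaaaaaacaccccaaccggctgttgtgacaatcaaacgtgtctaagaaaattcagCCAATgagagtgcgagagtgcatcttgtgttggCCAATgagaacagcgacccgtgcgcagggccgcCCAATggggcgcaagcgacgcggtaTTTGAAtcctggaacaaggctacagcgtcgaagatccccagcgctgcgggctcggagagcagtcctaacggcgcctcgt
HMMR: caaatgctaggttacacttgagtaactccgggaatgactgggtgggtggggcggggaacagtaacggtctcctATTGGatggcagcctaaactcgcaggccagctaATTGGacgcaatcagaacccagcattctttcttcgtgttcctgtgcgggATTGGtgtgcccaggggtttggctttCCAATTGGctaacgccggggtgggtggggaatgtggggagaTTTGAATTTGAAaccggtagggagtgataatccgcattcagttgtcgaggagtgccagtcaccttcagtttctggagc

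Spindle and centromere genes made up most of the next group by p-value. NUSAP1, a microtubule-bundling protein, read 11.34, 11.40 and 11.21 with the mir-22 mimic and 11.77, 11.63 and 11.48 with the control mimic, or -0.31 ± 0.11. KIF20A, a kinesin of the central spindle, read 10.20, 10.16 and 10.32 with the mimic and 10.49, 10.45 and 10.55 with the control, or -0.27 ± 0.10. TPX2, which activates Aurora A on the spindle, read 10.33, 10.30 and 10.39 with the mimic and 10.57, 10.61 and 10.57 with the control, or -0.25 ± 0.09. In these genes every mimic array lay below every control array, yet their adjusted p-values in limma lay between 0.140 and 0.145. KIF20A was at -0.24 and TPX2 at -0.25 without control mimic replicate 3, and neither passed.

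CENPE, the kinetochore kinesin that moves chromosomes to the spindle equator, read 9.26, 9.23 and 9.24 with the mir-22 mimic and 9.53, 9.55 and 9.36 with the control mimic, or -0.24 ± 0.10. KIF11, the motor that pushes the spindle poles apart, read 9.66, 9.65 and 9.81 with the mimic and 9.87, 9.94 and 10.06 with the control, or -0.25 ± 0.10. CDC20, the activator of the anaphase-promoting complex, read 12.47, 12.55 and 12.58 with the mimic and 12.70, 12.71 and 12.95 with the control, or -0.26 ± 0.11. The centromeric histone CENPA read 9.48, 9.52 and 9.51 with the mimic and 9.66, 9.66 and 9.71 with the control, or -0.17 ± 0.09, and its dimmer probe was at -0.32. The groups did not overlap in these 4 genes either, and their adjusted p-values lay between 0.190 and 0.287 (limma). KIF11 was at -0.20, CDC20 at -0.17 and CENPA at -0.16 without control mimic replicate 3, and none of these passed. At an unadjusted p under 0.05, 9 of the 33 genes were lower and none higher, where 14.2% of all genes were lower and 25.6% passed in either direction. The mimic and control arrays were fully separated for 11 of the 33 genes, or 33.3%, all lower with the mimic, where 34.2% of all measured genes were separated in either direction and 19.5% with lower mimic values.

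Mitotic cyclins, CDK1 and its partner CKS2 had no called gene, and their precision differed. CKS2, the brightest of them, read 12.11, 12.05 and 11.92 with the mir-22 mimic and 12.21, 12.10 and 11.61 with the control mimic, or 0.05, and was at -0.13 without control mimic replicate 3. CCNA2, cyclin A2, had a log2 fold change of -0.06 with a 95% interval from -0.27 to 0.15, and CCNB2, cyclin B2, one of 0.01 with an interval from -0.20 to 0.23. CCNB1, cyclin B1, read 8.31, 7.83 and 7.74 with the mir-22 mimic, against 7.92, 7.93 and 6.78 with the control mimic. CDK1 read 10.59, 10.61 and 10.44 with the mimic, against 10.89, 10.59 and 9.45 with the control. In both genes control mimic replicate 3 was the lowest of the 6 arrays, and the intervals were wide, from -0.29 to 1.12 for CCNB1 and from -0.50 to 0.98 for CDK1. Without control mimic replicate 3 the log2 fold changes were 0.03 for CCNB1 and -0.19 for CDK1, and neither passed (adjusted p = 0.919 and 0.291, limma). The dimmer CDK1 probe was at -0.38 without that array (adjusted p = 0.0489), against -0.0033 with it.

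Among the mitotic kinases none of 6 was called, with log2 fold changes from -0.19 for AURKB to 0.34 for NEK2. AURKA, the spindle pole kinase and the brightest of the 6, read 11.84, 11.86 and 11.97 with the mir-22 mimic and 11.96, 11.93 and 12.15 with the control mimic, or -0.12, which was 0.039 with median scaling. PLK1, the Polo-like kinase, was at -0.13, and the checkpoint kinases TTK and BUB1 were at 0.11 and 0.29. Without control mimic replicate 3, NEK2 was at 0.03 (adjusted p = 0.920), BUB1 at -0.05 and TTK at -0.18. None of the 4 genes of the spindle checkpoint and the anaphase-promoting complex was called, with log2 fold changes from -0.26 for CDC20 to 0.20 for BUB1B. MAD2L1, a checkpoint protein, was at -0.08, and UBE2C, the ubiquitin-conjugating enzyme of the complex, at 0.13, or -0.16 and -0.05 without control mimic replicate 3. The checkpoint kinase-like protein BUB1B read 6.11, 6.21 and 6.08 with the mir-22 mimic and 6.67, 6.24 and 4.90 with the control mimic, and its standard error of 0.38 was the largest among the 33 genes. CENPF, a kinetochore protein, read 9.60, 9.78 and 9.83 with the mimic and 9.76, 9.83 and 10.05 with the control, or -0.14, and BIRC5, survivin, was at 0.10. Of the remaining spindle genes, KIF23 was at -0.12, DLGAP5 at -0.05, HMMR at 0.02 and ASPM at 0.47 (adjusted p = 0.348). With control mimic replicate 3 left out, DLGAP5 was at -0.22 and ASPM at 0.11, and neither passed. TOP2A, the topoisomerase that untangles mitotic chromosomes, read 11.77, 11.66 and 11.47 with the mimic and 11.40, 11.43 and 11.58 with the control (0.16, adjusted p = 0.439, and 0.21 without control mimic replicate 3). FOXM1, the transcription factor that drives many of these genes, read 8.79, 8.78 and 8.98 with the mimic and 8.88, 8.88 and 9.07 with the control, or -0.09 (95% interval from -0.34 to 0.16). Of the 31 genes not called, 21 had a 95% interval within 0.5 log2 units of 0, that is within 1.41-fold in either direction, and the interval of the other 10 reached past that limit.

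Control mimic replicate 3 was far below the other controls for a subset of these genes. It lay over 0.5 log2 units below the mean of control mimic replicates 1 and 2 for 10 of the 33 genes, or 30.3%, against 10.6% of all measured genes, and over 1 unit below it for 5, or 15.2%, against 2.73%. Those 5 were BUB1B (-1.55), CDK1 (-1.29), CCNB1 (-1.14), ASPM (-1.09) and BUB1 (-1.04). BUB1B read 4.90 on this array, a dim value near the 4.68 of the dimmer MAD2L1 probe. That MAD2L1 probe was above background on only 5 of 6 arrays. The other 5 were NEK2 (-0.94), TTK (-0.86), CKS2 (-0.54), DLGAP5 (-0.54) and UBE2C (-0.52). No member lay over 0.5 units above. The probes of a single gene could differ on this array. The brighter probe of HMMR, a spindle-associated protein, read 11.17 on control mimic replicate 3 and 10.90 and 10.96 on control mimic replicates 1 and 2, whereas its dimmer probe read 7.74 against 9.64 and 9.65. KIF11 showed the same split, with its brighter probe 0.16 above and its dimmer probe 1.19 below the other controls, and log2 fold changes of -0.25 and 0.12. Of the 16 genes with several probes, 4 had probes over 1 log2 unit apart on this array, namely HMMR, KIF11, MAD2L1 and NEK2. Probes of 5 genes had log2 fold changes of opposite sign with all 6 arrays, and those of 1 gene, HMMR, did so without control mimic replicate 3. The HMMR probes were the farthest apart in log2 fold change, with the dimmer at 0.62 ± 0.48 and the brighter at 0.02. Dimmer probes of UBE2C (-0.12), NEK2 (0.03), MAD2L1 (0.20), BIRC5 (0.01), KIF23 (-0.06), FOXM1 (-0.14) and NUSAP1 (-0.22) differed in log2 fold change from the brighter ones, and none of these was called with all 6 arrays. The standard error over the beads of a member's brightest probe lay between 1.79% and 19.8% of its intensity. Control mimic replicate 3 also had the fewest probes above background, 35.8%, and the part of this in these values was not tested.

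**Figure D3:**
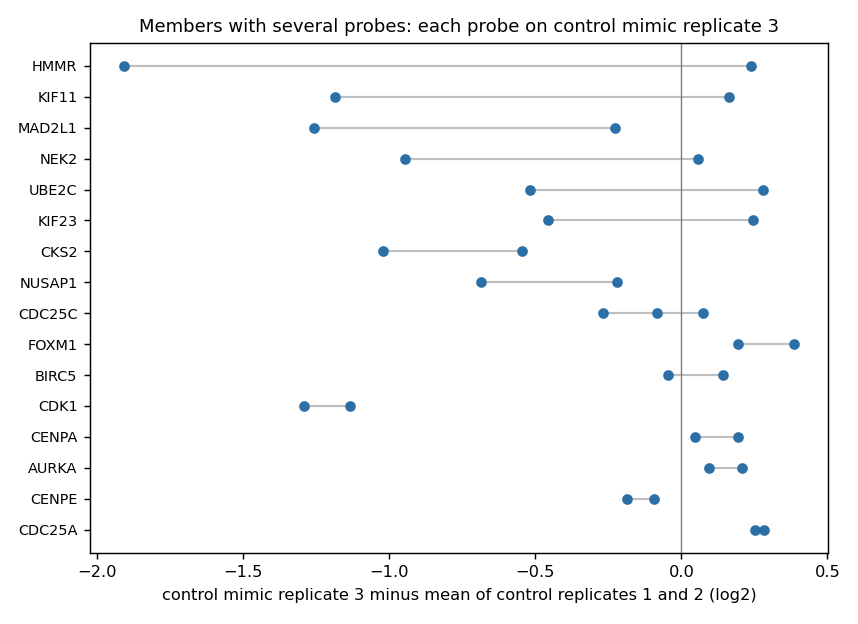
For the 16 members with several probes, the normalised log2 intensity of each probe on control mimic replicate 3 minus its mean on control mimic replicates 1 and 2 (each point is 1 probe, lines join the probes of a gene). The HMMR probes lie at -1.91 and 0.24, whereas the CDK1 probes both lie below -1.

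Without control mimic replicate 3, which leaves 3 mimic and 2 control arrays, 5 of the 33 genes were called, all lower with the mir-22 mimic, or 15.2%, where 16.2% of all genes were called, 7.63% lower and 8.6% higher. These were CDC25B (-0.69 ± 0.08, adjusted p = 0.0013), CDC25C (-0.52 ± 0.10, 0.00848), WEE1 (-0.34), NUSAP1 (-0.39) and CENPE (-0.30). Both NUSAP1 probes passed, at -0.39 and -0.45, while the dimmer CENPE probe was at -0.24 and did not. The median over the members was -0.13, against -0.0026 over all genes, and 26 of 33 lay below 0, or 78.8%, against 50.5% of all genes. Among the 10 genes that were low on the omitted array, 7 then lay below 0, with BUB1B at -0.32 (adjusted p = 0.124) and TTK at -0.18. The mean of control mimic replicates 1 and 2 both picked these 10 genes and enters their fold changes, which favours values below 0. The share among all genes picked this way was not computed, so the count says nothing particular to the members. With both arrays numbered 3 left out the same 5 genes were called, beside 18.4% of all genes, and with the replicate block the 2 called genes were those called without it, beside 9.89% of all genes.

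**Figure D4:**
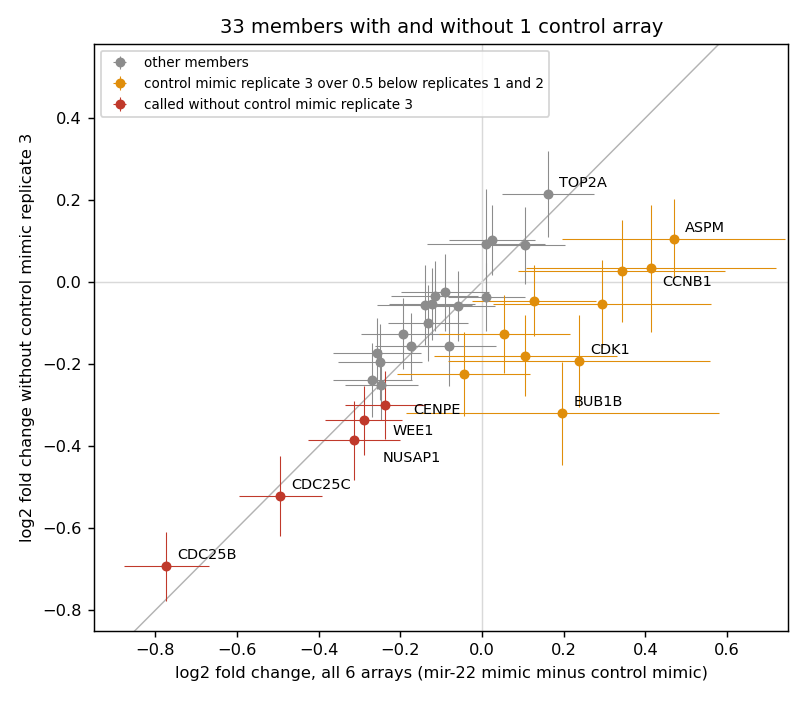
Log2 fold change (mir-22 mimic minus control mimic) of the 33 genes with all 6 arrays (horizontal) and without control mimic replicate 3 (vertical), with moderated standard errors; the diagonal marks equal values. CDC25B and CDC25C lie near the diagonal, whereas BUB1B moves from 0.20 to -0.32 and CDK1 from 0.24 to -0.19.

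Of a wider set of 126 listed genes of the same pathway, outside the 33, 116 were measured and 19 were called, or 16.4%, beside 7.61% of all measured genes. Of these calls 17 were lower and 2 higher with the mir-22 mimic. Among other mitosis genes 14 of 73 measured were lower, or 19.2%, and 1 was higher, beside the 4.14% and 3.47% given for all genes. SPC24, NUF2 and SPC25, subunits of the NDC80 complex that grips microtubules, were at -0.51, -0.50 and -0.46. NDC80 itself, named after its values were seen, was at 0.15 with all arrays and at -0.36 without control mimic replicate 3, and passed in neither case. The dimmer probes of NUF2 and SPC25 were at -0.06 and -0.04, and a replicate block ended both calls (adjusted p = 0.0542 and 0.0513).

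Of 7 measured genes of this set named as centromere proteins (CENP), 4 were called, all lower. Of all measured genes 7.61% were called, 4.14% lower. The 7 were grouped by name, within a list chosen with earlier results known. The members CENPA, CENPE and CENPF were not called with all arrays. CENPO read 7.49, 7.51 and 7.55 with the mir-22 mimic and 8.17, 8.07 and 8.28 with the control mimic, or -0.66 ± 0.10 (adjusted p = 0.0108, limma). CENPN (0.21), CENPH (0.27) and CENPK (-0.30) were not called, and CENPK was at -0.66 without control mimic replicate 3 (adjusted p = 0.00889). CENPM (-0.61), CENPB (-0.54) and CENPI (-0.52), with OIP5 (-0.58), which helps load centromeric histone, and SGO2 (-0.43), which protects centromeric cohesion, were also lower. MAD2L2, a checkpoint homologue of MAD2, was at -0.59, MASTL, the kinase that keeps mitotic phosphatase activity down, at -0.51, and the proliferation marker gene MKI67 at -0.48. DEPDC1B (-0.57) and PIMREG (-0.50) completed the 14, and the dimmer probes of DEPDC1B and MASTL were at -0.19 and -0.18. The gene that rose was GMNN, geminin, which blocks relicensing of replication origins. It read 8.98, 9.03 and 8.59 with the mimic and 7.99, 8.07 and 7.05 with the control, or 1.16 ± 0.26 (adjusted p = 0.0398), and 0.84 without control mimic replicate 3.

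The other lists held few calls, and their shares lay nearer the 7.61% of all genes called. Mitotic exit genes had 2 of 18 called, or 11.1%, both lower, CDC14A, a phosphatase (-0.67), and ANAPC1, the large subunit of the anaphase-promoting complex (-0.47), each with a dimmer probe that was not called (-0.01 and 0.08). The called CDC14A probe was itself dim, at a mean of 5.67 with the mimic and 6.34 with the control. Of 14 measured genes of the DREAM and MYB-MuvB complexes and their partner NF-Y, 1 was called, or 7.14%, NFYA, which was lower (-0.55), and its dimmer probe was at 0.17. Of 11 measured genes that restrain entry into mitosis, 1 was called, or 9.09%, the stress-induced gene GADD45A, which was higher. Its brighter probe read 10.49, 10.46 and 10.64 with the mir-22 mimic and 10.13, 10.05 and 10.00 with the control mimic, or 0.47 ± 0.10 (adjusted p = 0.0322, limma). Its dimmer probe read 9.73, 9.72 and 9.78 with the mimic, against 9.13, 8.995 and 9.02 with the control, or 0.70 ± 0.09 (adjusted p = 0.00763). The CDK inhibitor gene CDKN1A, another restraint, was at -0.58 and did not pass (adjusted p = 0.0518), and passed with the replicate block (0.0456). The calls of the wider set depended on single arrays, as did those over all kept probes. No gene of it was called when any 1 mimic array was left out. When a control array was left out, 4 were called without replicate 1, 1 without replicate 2 and 29 without replicate 3. Calls over all kept probes, 1210 with all arrays, moved in the same directions. They were 134, 137 and 222 without mir-22 mimic replicates 1, 2 and 3. Without control mimic replicates 1, 2 and 3 they were 601, 419 and 2689. With median scaling GADD45A alone was called, and all 17 genes called lower kept log2 fold changes below 0.

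**Figure D5:**
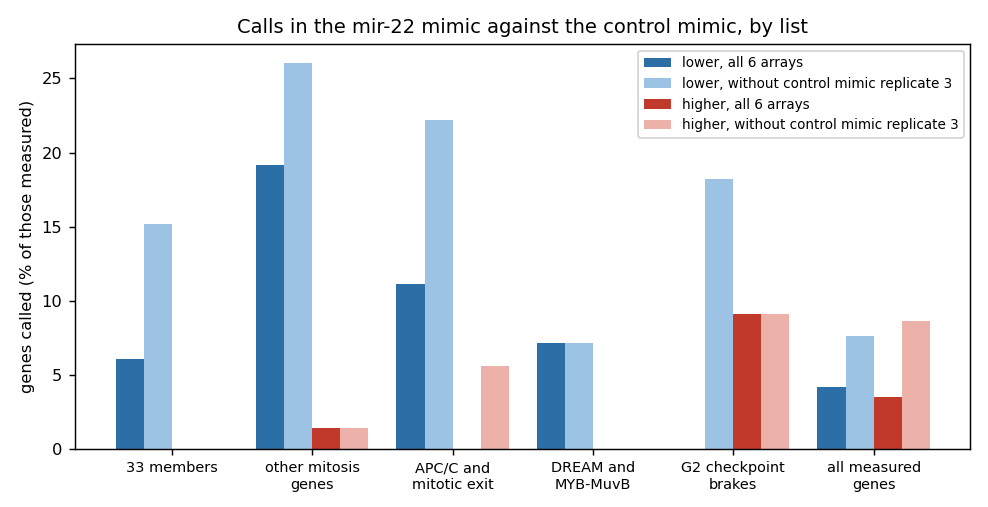
Share of measured genes called lower (blue) or higher (red) with the mir-22 mimic in each list, with all 6 arrays (dark) and without control mimic replicate 3 (light); bars start at 0. Other mitosis genes had 19.2% called lower with all arrays, against 4.14% of all measured genes.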

How the data were processed

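Gene expression was measured on 6 single-colour Illumina bead arrays. Each deposited file gives, per the file headers, a probe's mean bead intensity (linear, not normalised), the standard deviation and count of its beads and a detection score between 0 and 1. BeadStudio made these summaries, per the submitters' processing notes (version not given in the sources used here). Brighter probes have a higher deposited score, and 1 minus it served as the detection p. The authors' value table of normalised intensity names the probes and was joined to the array files through its values, which matched all 48803 rows. Gene symbols came from the platform annotation, with 28098 probes having 1 symbol, 13 several and 20692 unnamed here.

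Intensities were processed with neqc in limma 3.58.1 (R 4.3.3), that is background correction of the deposited intensities (background inferred from the detection p), an offset of 16, quantile normalisation and log2, which compresses low signals. Probes with a detection p under 0.01 on at least 3 of 6 arrays were kept. lmFit and eBayes gave the two-sided comparison of the mir-22 mimic with the control mimic, and calls were made at a Benjamini-Hochberg adjusted p under 0.05 across kept probes. The fit and the calling were tested on simulated data, drawn as already normalised values with no outlying array. The steps before the fit were not tested in this way. Samples were grouped by their labelled description. Deviations of arrays with the same replicate number from their group means correlated at 0.334, 0.135 and 0.434. Differently numbered arrays 1 and 2 correlated at 0.315 (mimic 1, control 2) and 0.181 (mimic 2, control 1), so that these numbers were not told apart as pairs, and pairs with a single number 3 array correlated below 0. The labels name no shared culture or day. Each same-number correlation was over 0.1, and on that rule a fit with the number as a block was run beside the fit without. Other settings were tried as given in the closing section.

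The members and the gene lists were chosen with earlier results of these data known. Named with array values were the called members, the 10 with the lowest adjusted p and the brightest of each role group. Also named were dimmer probes that differed and every called gene of the other lists. Array values of further members were chosen after they were seen. The number of arrays limits the precision.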

Additional observations from a re-analysis of the deposited data

How the results depend on the processing

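Besides leaving out each array, 11 settings and 1 chosen after seeing the data (both number 3 arrays left out) were tried. The number of called members, 2 with all arrays, was 1 with median scaling and 1 without shared variance, 8 with array weights, 5 without both number 3 arrays, and 0 to 5 when 1 array was left out. It was 2 in the others, the replicate block included. Their median log2 fold change of -0.08 was 0.056 with median scaling and ran from -0.13 to -0.058 when 1 array was left out. Calls in the wider lists, 19 with all arrays, were 1 with median scaling, 3 without shared variance, 46 with array weights, 37 without both number 3 arrays and 0 to 29 when 1 array was left out. Calls over all kept probes, 1210 with all arrays, were 628, 325, 4405 and 3042 in those settings and 134 to 2689 when 1 array was left out. Of the members recomputed singly, 3 uncalled ones turned sign under median scaling, AURKA (0.039), CENPF (0.0024) and FOXM1 (0.056), each remaining below the median of all genes there (0.098). CKS2 turned to -0.062 with array weights and -0.073 without both number 3 arrays, and ran from -0.13 (without control mimic replicate 3) to 0.17 when 1 array was left out. The replicate block ended the calls of NUF2 and SPC25, added CDKN1A, INCENP, ANAPC13, FBXO5 and KIF4A and changed no other call of the lists' genes, so that 22 were called. The causes were not tested. By the detection p, 1 member probe, of MAD2L1, was above background on only 5 of 6 arrays. The BUB1B probe was above it on all 6, but was also dim, at 4.90 on control mimic replicate 3. That MAD2L1 probe read 4.68 there.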
